A study of Mus musculus with 8 samples.

Results

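The ATF4 amino acid response and the unfolded protein response were followed here through 38 genes in 4T1 cells, a mouse mammary carcinoma line. The genes were chosen by symbol from the 24787 entries of the deposited table, and all 38 were found in it. They fall into an ATF4 arm of 22 genes, 4 genes of stress sensing in the endoplasmic reticulum (ER), called sensors here for short (Eif2ak3, Ern1, Atf6 and Xbp1, the last a factor made active by the sensor IRE1), and an arm of 12 ER chaperones, disulfide isomerases and degradation factors that XBP1 and ATF6 control. RNA was sequenced from 4 libraries of cells with a control shRNA and 4 libraries of cells in which an shRNA targets Etv5, the gene of a transcription factor of the ETS family. The labels give the control cells the genotype WT and the others Etv5 knockdown, with no further allele, agent, time point or clone. Both groups carry an shRNA, and the library names give a single construct per group, NT for the control and sh2 for Etv5, so a second shRNA against Etv5 was not compared. Whether the replicates came from separate cultures is not stated in the labels, so each p-value below reflects only the spread among these libraries, which may be technical.

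ATF4 is a transcription factor made mostly by selective translation of its mRNA when kinases of the integrated stress response phosphorylate the initiation factor eIF2. It binds C/EBP-ATF response elements and raises genes that make, import and charge amino acids, together with genes that later dampen the response. Unfolded protein in the ER activates PERK, which feeds into ATF4, and also IRE1, which splices Xbp1 mRNA, and ATF6; XBP1 and ATF6 then raise chaperones through ER stress elements. Tumour cells are known to lean on both arms when growth outpaces nutrient supply or protein folding. The table gives 1 value per gene, so spliced and unspliced Xbp1 mRNA, the translation of Atf4 and protein levels were not measured.

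The promoters of the members were searched for the elements these factors are known to bind. RefSeq promoters on GRCm38.p6, from 250 bases before to 50 bases after each start, were found for 34 of the 38 genes; Atf6, Manf, Slc1a5 and Slc7a5 were not matched. The C/EBP-ATF response element was searched as TGATGNAA on both strands, with its stricter form TGATGCAA inside it. The ER stress element was searched as its boxes CCAAT and CCACG with 9 bases between them, also on both strands, and the unfolded protein response element as TGACGTG. No printed match of a motif overlaps a match of another kind. The lines below hold the matches in capitals, each written 5′ to 3′ along the gene. Atf3 and Chac1 are shown because both rose in the comparison below and hold the strict element on the opposite strand, where it reads TTGCATCA. Asns and Slc7a11 are shown as the textbook amino acid response genes, the first with a looser match that lies in an annotated exon and the second with a pair of strict matches.
Atf3, chr1:191183396-191183483, minus strand: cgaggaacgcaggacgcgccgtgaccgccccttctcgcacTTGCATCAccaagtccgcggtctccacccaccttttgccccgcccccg
Chac1, chr2:119351009-119351096, plus strand: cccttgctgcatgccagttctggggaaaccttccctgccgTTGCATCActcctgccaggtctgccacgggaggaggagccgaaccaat
Asns, chr6:7693214-7693243, minus strand: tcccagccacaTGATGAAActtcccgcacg
Slc7a11, chr3:50443632-50443719, minus strand: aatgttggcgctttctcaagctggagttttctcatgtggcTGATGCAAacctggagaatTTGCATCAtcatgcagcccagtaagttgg

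Hspa5 and Calr are shown for the chaperone arm, as its best known targets. Hspa5, the gene of the master ER chaperone BiP, holds the unfolded protein response element and, nearer the start, an ER stress element. This ER stress element lies in an annotated exon. Calr, the gene of the lectin chaperone calreticulin, holds the ER stress element on the opposite strand, where its boxes read CGTGG and ATTGG.
Hspa5, unfolded protein response element, chr2:34771893-34771969, plus strand: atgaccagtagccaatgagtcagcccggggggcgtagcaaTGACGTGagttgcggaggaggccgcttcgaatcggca
Hspa5, ER stress element, chr2:34772020-34772049, plus strand: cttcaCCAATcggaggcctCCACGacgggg
Calr, chr8:84847035-84847133, minus strand: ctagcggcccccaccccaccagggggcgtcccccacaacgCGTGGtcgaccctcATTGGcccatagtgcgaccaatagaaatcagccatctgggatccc

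In these windows of 300 bases, TGATGNAA was found in 6 of 20 matched genes of the ATF4 arm (Atf3, Trib3, Chac1, Asns, Pycr1 and Slc7a11), in 1 of 11 of the chaperone arm (Herpud1) and in none of 3 sensors. Of all 27025 genes with a promoter in the table, 4.51% held it. The stricter TGATGCAA was in 4 of 20 of the ATF4 arm and in 1.03% of all. Among the members called higher in the main fits below, Mthfd2 and Aldh18a1 held no TGATGNAA, and Slc7a5 and Slc1a5 had no matched promoter. Trib3, Asns, Pycr1 and Slc7a11 held it and were not called in those fits. The ER stress element was in 6 of 11 matched genes of the chaperone arm (Hspa5, Hsp90b1, Calr, Canx, Creld2 and Pdia6), in none of the ATF4 arm, and in 0.137% of all. TGACGTG was in Hspa5 alone among the matched members and in 2.22% of all genes. A match is a description of letters in a window and not a measured binding site.

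Each value in the table is the read coverage of a gene averaged over its bases and scaled to the depth of the library. It is called a coverage value here, and this reading of the unit comes from the values. Levels of genes of different length are only roughly comparable, since the third library of each group deviated with transcript length, as given below. Read depth is unknown; the values summed to between 254791.9 and 390495.4 per library. Etv5 shRNA library 3 stood apart, with the highest sum and the fewest genes above 0, at 13920 against 15126 to 15379 in the other 7. The main results are therefore given over all 8 libraries and over 7 libraries without it. The Etv5 coverage value was 15.2, 15.1, 11.7 and 14.4 in the controls and 13.04, 11.2, 7.52 and 12.7 in the Etv5 shRNA libraries. Since these ranges overlap, a lower level was not resolved (exact two-sided permutation p = 0.0857, with 0.0286 the smallest possible over 70 assignments; limma adjusted p = 0.819 over 8 libraries and 0.422 over 7). Of the 50-base stretches of its transcript, 26.8% also occur in the pseudogene Gm4798. Epithelial markers of the carcinoma were present (9 of 10 reached 0.5, with values summing to 1350.7 to 1824.8 per control library and 1379.9 to 3190.2 per Etv5 shRNA library). Of the leukocyte markers 1 of 9, Cd68, reached 0.5 and Cd3e and Adgre1 were at 0 in every library; the sums were 2.99 to 4.58 and 2.93 to 3.37. Of the fibroblast markers 1 of 7, Pdgfra, reached 0.5 and Dcn and Lum were at 0 in every library; the sums were 2.71 to 3.60 and 0.641 to 2.59. None of 4 endothelial markers reached 0.5. Over 7 libraries the epithelial Cdh1 rose by 0.71 on the log2 scale (limma adjusted p = 0.00461). Over the same libraries Pdgfra fell by 0.50 (limma adjusted p = 0.0452). Neither passed over 8 libraries (limma adjusted p = 0.806 and 0.435). Cdh1 was the 1 epithelial marker called, and the others tested ran from -0.13 (Krt18) to 0.41 (Krt14) over 7 libraries. The part of Cdh1 and Pdgfra in the results below was not tested.

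Over 8 libraries no member passed the test in either direction. Over 7 libraries 6 of 22 genes of the ATF4 arm were higher with the Etv5 shRNA and none lower, while none of the 4 sensors and none of the 12 chaperone genes passed. The 6 were Atf3, Chac1, Mthfd2, Aldh18a1, Slc7a5 and Slc1a5: a stress transcription factor, a glutathione-degrading enzyme, an enzyme each of one-carbon and proline metabolism, and a pair of amino acid transporters. The test was limma on log2(value + 1) across all genes that reached 0.5 in 4 or more of the 8 libraries, or in 3 of the 7, with Benjamini-Hochberg adjustment and a gene called at an adjusted p under 0.05. Of all 11731 genes tested over 8 libraries, 0.00852% were called higher and 0.486% lower. Of all 11836 tested over 7 libraries, 1.07% were called higher and 2.06% lower. All 38 members passed the filter on low values in both comparisons. For the 6 called genes the standard error (SE) ran from 0.1303 (Mthfd2) to 0.2935 (Aldh18a1) over 8 libraries. Over 7 libraries it ran from 0.0821 (Slc1a5) to 0.103 (Mthfd2). The absence of calls over 8 libraries therefore does not show equal levels. Coverage of bulk RNA cannot tell a higher level in every cell from more cells with a high level.

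Read at an unadjusted p under 0.05, 5 of 22 genes of the ATF4 arm passed over 8 libraries and 13 of 22 over 7, against none and 1 of 12 in the chaperone arm. In either direction, 7.09% of all tested genes did so over 8 libraries and 18.9% over 7. The groups did not overlap, with the Etv5 shRNA higher, for 4 of 22 genes of the ATF4 arm over 8 libraries (Atf3, Mthfd2, Asns and Slc3a2) and for 12 of 22 over 7. The same held for 1.52% and 9.72% of all tested genes. In the chaperone arm it held for 1 of 12, Calr, in both comparisons. The opposite order, all Etv5 shRNA libraries lower, held for Xbp1 alone among the 38, against 7.58% of all genes over 8 libraries and 10.5% over 7.

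**Figure D1:**
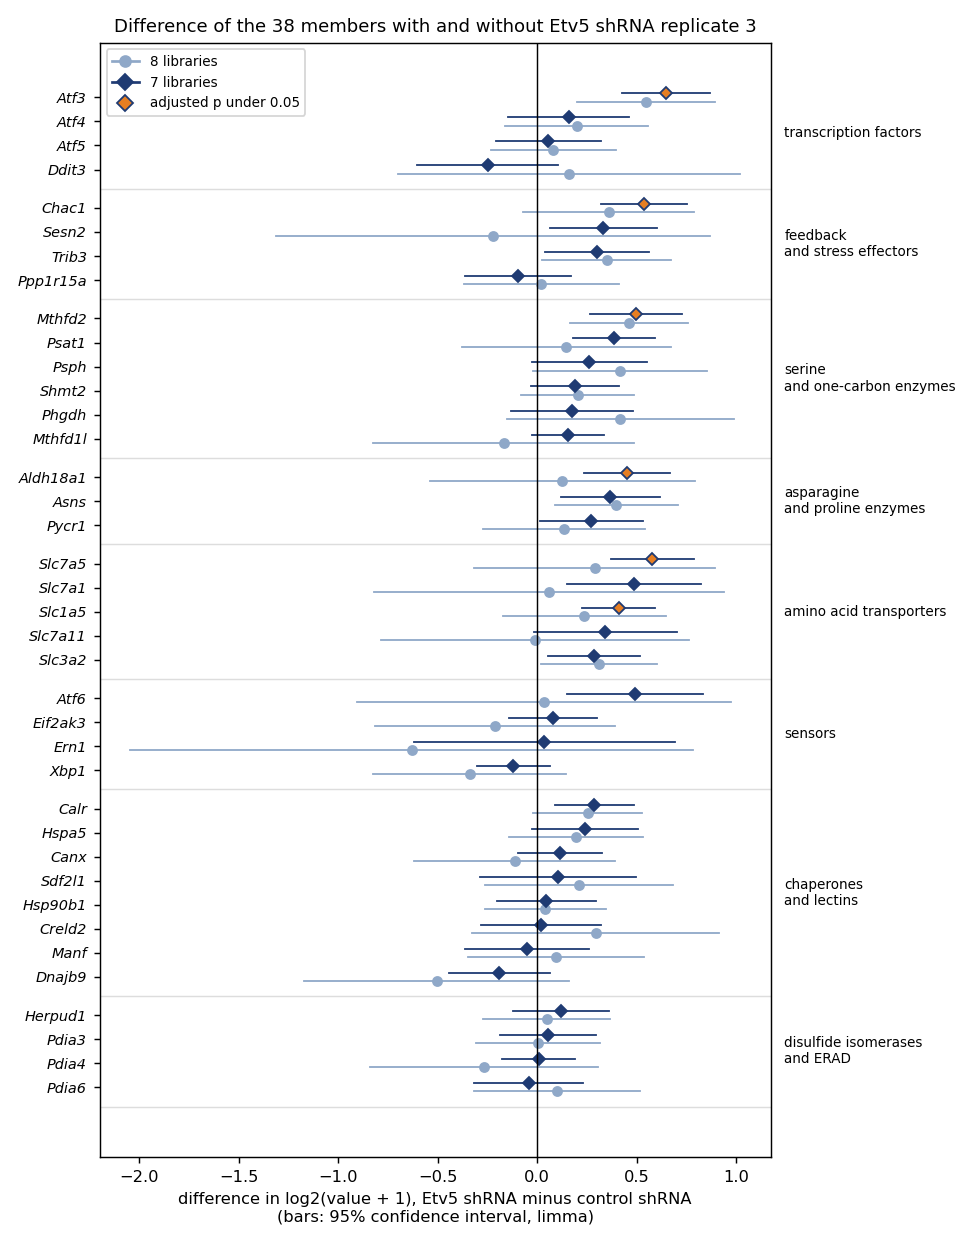
Difference between the Etv5 shRNA and control libraries on the log2(value + 1) scale (horizontal axis) for the 38 genes, grouped by role, with 95% confidence intervals; light circles are the fit over 8 libraries, dark diamonds the fit over 7 without Etv5 shRNA library 3, and orange marks an adjusted p under 0.05. All 6 orange symbols lie in the ATF4 arm, at differences of 0.41 to 0.65 over 7 libraries, where the chaperone arm spans -0.19 to 0.29.

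Of the 4 transcription factors of the ATF4 arm, Atf3 rose over 7 libraries and Atf4, Atf5 and Ddit3 did not pass. Differences between members were not tested, here or in the other groups. Atf4 had coverage values of 179, 195, 251 and 174 in the controls and 222, 216, 246 and 225 in Etv5 shRNA libraries 1 to 4. The controls spanned the Etv5 shRNA values, because control library 3 was the highest of all 8. On the log2 scale the difference was 0.20 over 8 libraries (limma adjusted p = 0.879) and 0.16 over 7 (95% interval -0.15 to 0.46, adjusted p = 0.563). Atf5, a related factor under ATF4 control, averaged 91.7 ± 11.9 (SD) in 4 controls and 94.9 ± 6.22 in the 3 Etv5 shRNA libraries.

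Atf3 encodes a stress-induced factor of the same family that acts downstream of ATF4. Its coverage values were low, at 4.40, 4.78, 4.48 and 3.67 in the controls and 7.74, 7.27, 5.30 and 6.98 in the Etv5 shRNA libraries. Every Etv5 shRNA library lay above every control, library 3 being the nearest. The ratio of group means was 1.57 over 8 libraries and 1.69 over 7. On the log2(value + 1) scale, which understates changes of low values, the difference was 0.55 over 8 libraries (adjusted p = 0.340) and 0.65 over 7 (SE 0.0991, adjusted p = 0.00968). Leaving out 1 more library kept the call in 5 of 7 fits and lost it without Etv5 shRNA library 1 (adjusted p = 0.0726) or library 2 (adjusted p = 0.0624). Over 8 libraries Atf3 passed under median-of-ratios scaling and quantile normalisation.

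Ddit3 encodes CHOP, the factor tied to cell death after unresolved ER stress. It had coverage values of 27.3, 37.1, 45.7 and 30.9 in the controls and 31.2, 28.6, 92.4 and 27.1 in the Etv5 shRNA libraries. Library 3 of each group was its highest, and Etv5 shRNA library 3 stood at more than any other library. The log2 difference was 0.16 over 8 libraries and -0.25 without that library (95% interval -0.60 to 0.10, adjusted p = 0.426), so its sign rested on 1 library and it passed the test in neither comparison.

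Among the feedback and stress effectors Chac1 rose over 7 libraries, and Trib3, Sesn2 and Ppp1r15a did not pass. Chac1 encodes an enzyme that degrades glutathione and is among the standard readouts of ATF4 activity. Its coverage values were 36.7, 36.6, 39.8 and 32.3 in the controls and 52.6, 49.2, 32.1 and 57.6 in the Etv5 shRNA libraries. Etv5 shRNA library 3 was below every control and the other 3 were above every control. The ratio of means over 7 libraries was 1.46 (36.4 ± 3.08, SD, n = 4, against 53.1 ± 4.21, n = 3), with a log2 difference of 0.54 (SE 0.0967, adjusted p = 0.0209), and over 8 libraries the difference was 0.36 (adjusted p = 0.806). The call over 7 libraries held without control library 3 or 4 and was lost without any 1 of the other 5, with adjusted p up to 0.115.

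Sesn2, a stress-induced inhibitor of mTORC1 signalling, had 12.6, 12.5, 8.88 and 10.8 in the controls and 14.7, 14.3, 2.25 and 13.7 in the Etv5 shRNA libraries. Library 3 of each group was its lowest, and the other 3 Etv5 shRNA libraries exceeded all controls. The log2 difference was 0.33 over 7 libraries (adjusted p = 0.170) and -0.22 over 8, where the ratio of means was 1.00. Trib3, a pseudokinase that restrains ATF4, stood at 54.0 ± 7.54 (SD, n = 4) in the controls and at 66.3 ± 4.71 (n = 3) with the Etv5 shRNA, with a log2 difference of 0.30 over 7 libraries (adjusted p = 0.208) and 0.35 over 8. Ppp1r15a encodes GADD34, which helps to remove the phosphate from eIF2. It stood at 7.26 ± 1.09 and 6.68 ± 0.355, a difference of -0.09 over 7 libraries (adjusted p = 0.700) and 0.02 over 8.

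All 6 genes of serine synthesis and one-carbon metabolism had positive differences over 7 libraries, between 0.15 and 0.50, and 1 of them, Mthfd2, passed. Over 8 libraries 5 of 6 were positive, with Mthfd1l at -0.17 (adjusted p = 0.892). Mthfd2 encodes a mitochondrial enzyme of the folate cycle. Its coverage values were 72.3, 80.9, 91.3 and 76.5 in the controls and 114.4, 119.7, 102 and 106 in the Etv5 shRNA libraries. All 4 Etv5 shRNA libraries were above all 4 controls, library 3 included. Its log2 difference came to 0.46 over 8 libraries (adjusted p = 0.348) and 0.50 over 7 (SE 0.103, adjusted p = 0.0352), with ratios of means of 1.38 and 1.41. The call over 7 libraries held without control library 3 (adjusted p = 0.00283) and was lost when any 1 of the other 6 libraries was left out, with adjusted p up to 0.175, or when no filter was used (0.0614). Over 8 libraries it passed once each library's trend with transcript length and GC content was removed.

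Psat1 encodes the aminotransferase of serine synthesis and was among the most abundant members. Its coverage values were 173, 184, 183 and 186 in the controls and 236, 249.6, 122 and 228 in the Etv5 shRNA libraries. Etv5 shRNA library 3 was the lowest of all 8, and the other 3 were above every control. The log2 difference over 7 libraries was 0.39 (95% interval 0.18 to 0.59, adjusted p = 0.0599) and over 8 libraries 0.15 (adjusted p = 0.891). Phgdh, the first enzyme of the pathway, had 117 ± 21.4 (SD, n = 4) and 131 ± 8.07 (n = 3), but 63.1% of the 50-base stretches of its transcript also occur in pseudogenes such as Gm7901, so its values are uncertain. In Etv5 shRNA library 3 it stood at 257, above all others. Psph, the phosphatase that completes serine, shares 8.86% of its exon bases with Cct6a and had a difference of 0.26 (adjusted p = 0.314). Shmt2 and Mthfd1l, mitochondrial enzymes that move one-carbon units, had differences of 0.19 and 0.15 over 7 libraries (adjusted p = 0.334 and 0.341).

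In the asparagine and proline group Aldh18a1 rose over 7 libraries, and Asns and Pycr1 did not pass. Asns encodes asparagine synthetase, the classical amino acid response gene. Its coverage values were 112.5, 118, 141 and 114 in the controls and 157, 168, 169.9 and 143 in the Etv5 shRNA libraries. No control reached any Etv5 shRNA library, and the nearest pair was control library 3 and Etv5 shRNA library 4. The ratio of means was 1.32 over 8 libraries and 1.29 over 7. Log2 differences were 0.40 (adjusted p = 0.494) and 0.37 (95% interval 0.12 to 0.62, adjusted p = 0.118). Without control library 3 in addition, it was 0.44 with an adjusted p of 0.0103.

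Aldh18a1 encodes the enzyme that starts proline synthesis from glutamate. It had 45.4, 46.9, 38.02 and 47.2 in the controls and 62.9, 61.05, 24.1 and 58.5 in the Etv5 shRNA libraries. Library 3 was the lowest of each group, by far so with the Etv5 shRNA, and the remaining 3 Etv5 shRNA libraries lay above every control. The ratio of means was 1.37 over 7 libraries (log2 difference 0.45, SE 0.0968, adjusted p = 0.0404) and 1.16 over 8 (adjusted p = 0.909). The call held without control library 3 (adjusted p = 0.00847) and was lost without any 1 of the other 6, with adjusted p up to 0.204; equal sums, quantile normalisation and no filter also lost it. Pycr1, which completes proline, was at 4.09 ± 0.607 (SD, n = 4) and 5.13 ± 0.529 (n = 3), with overlapping groups (adjusted p = 0.242).

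The 5 amino acid transporters all had positive differences over 7 libraries, from 0.29 to 0.58, the highest median of the role groups at 0.41, and Slc7a5 and Slc1a5 passed. Slc7a5 encodes LAT1, the importer of leucine and other large neutral amino acids. It had coverage values of 103.6, 103, 91.9 and 109.7 in the controls and 154, 156, 67.97 and 149 in the Etv5 shRNA libraries. Etv5 shRNA library 3 was below every control and the other 3 were far above them. The ratio of means was 1.50 over 7 libraries (log2 difference 0.58, SE 0.0929, adjusted p = 0.0114) and 1.29 over 8 (log2 difference 0.29, adjusted p = 0.879). Of 7 fits that left out 1 more library, 4 kept the call. It was lost without control library 2 (adjusted p = 0.0642), Etv5 shRNA library 1 (0.0895) or Etv5 shRNA library 2 (0.0730).

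Slc1a5 encodes ASCT2, a glutamine transporter. It had 59.7, 62.1, 55.3 and 59.1 in the controls and 77.03, 76.7, 48.3 and 82.4 in the Etv5 shRNA libraries. Again library 3 was the lowest of each group, and the other Etv5 shRNA libraries did not overlap the controls. The ratio of means was 1.33 over 7 libraries (log2 difference 0.41, SE 0.0821, adjusted p = 0.0313) and 1.20 over 8 (adjusted p = 0.879). The call held without control library 3 (adjusted p = 0.00948) and was lost without any 1 of the other 6, with adjusted p up to 0.147, and under equal sums and quantile normalisation. Slc3a2, the heavy chain that carries LAT1 to the membrane, was above the controls in every Etv5 shRNA library (75.9 ± 8.24 and 94.2 ± 5.31, SD, n = 4 each) without passing (adjusted p = 0.651 over 8 libraries and 0.175 over 7). Slc7a1, a carrier of cationic amino acids, had a difference of 0.48 over 7 libraries (adjusted p = 0.122) and 0.06 over 8. Slc7a11, the cystine importer with paired strict elements in the promoter shown above, was low, at 4.83 ± 1.03 (SD, n = 4) and 6.34 ± 1.08 (n = 3), and its groups overlapped (log2 difference 0.34 over 7 libraries, adjusted p = 0.288, and -0.01 over 8).

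**Figure D2:**
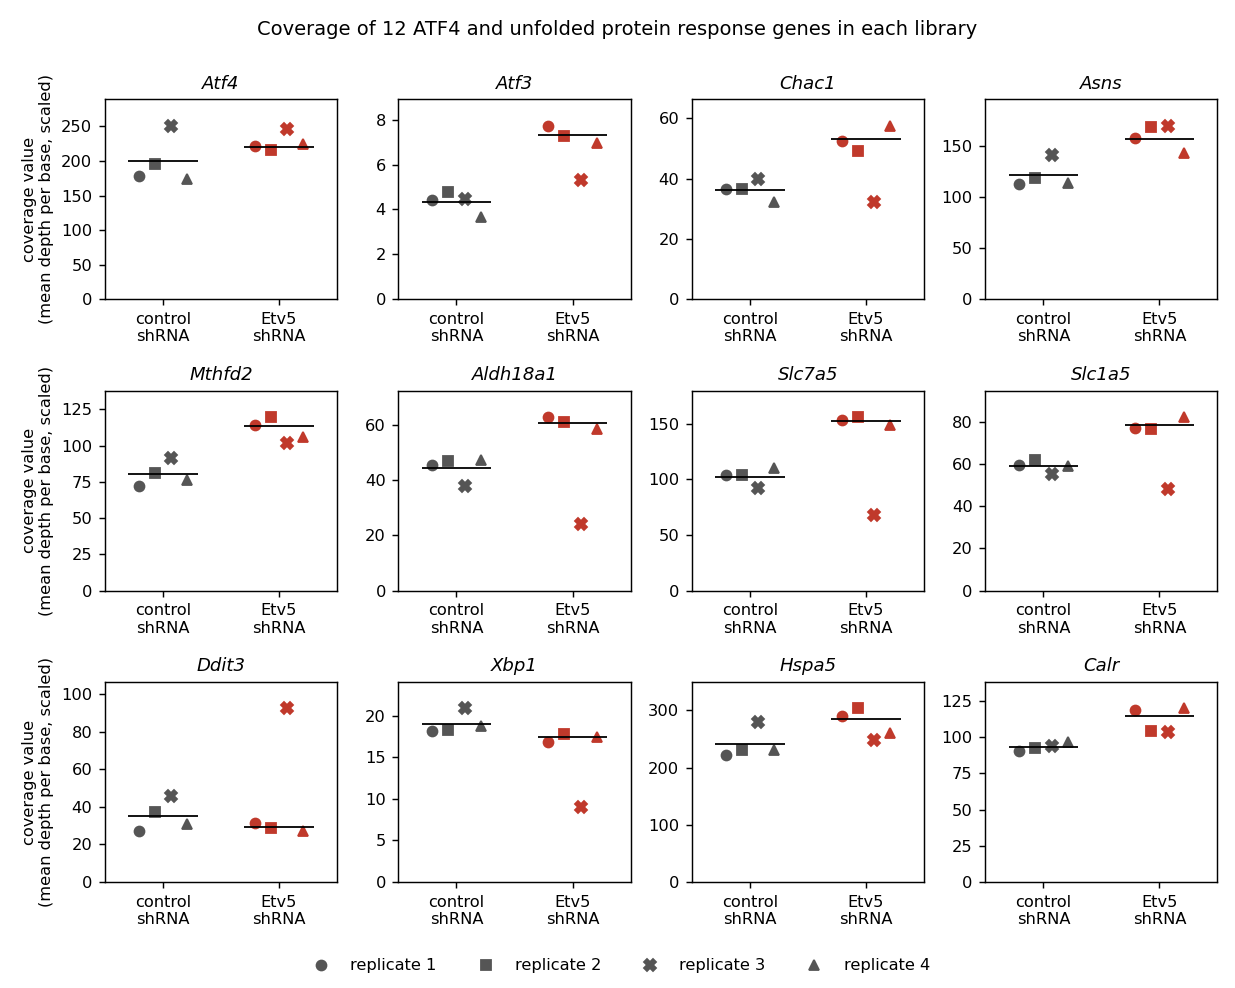
Coverage value (vertical axis, deposited scale) in each of the 8 libraries for 9 genes of the ATF4 arm and for Xbp1, Hspa5 and Calr; each symbol is 1 library, with the shape giving its replicate number and an X for replicate 3, and black lines are group means without Etv5 shRNA replicate 3. Chac1, Aldh18a1, Slc7a5 and Slc1a5 show 3 Etv5 shRNA libraries above all controls and the X below them, while Atf3, Mthfd2 and Asns have the X above the controls as well.

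None of the 4 sensors passed the test. Xbp1, whose product drives the chaperone arm once its mRNA is spliced, had coverage values of 18.2, 18.2, 20.9 and 18.8 in the controls and 16.9, 17.8, 9.02 and 17.5 in the Etv5 shRNA libraries. Every Etv5 shRNA library was below every control, but 3 of them by little. The ratio of means was 0.80 over 8 libraries and 0.91 over 7, where the log2 difference was -0.12 (95% interval -0.31 to 0.06, adjusted p = 0.457). Atf6 encodes the membrane-bound factor released by proteolysis under ER stress. It had 13.1, 13.4, 8.77 and 14.5 in the controls and 18.2, 18.8, 4.23 and 16.0 in the Etv5 shRNA libraries. Its level split as that of Slc7a5 did, with library 3 the lowest of each group and the other Etv5 shRNA libraries above the controls. The log2 difference over 7 libraries was 0.49 (95% interval 0.15 to 0.83, adjusted p = 0.123), and over 8 libraries 0.03.

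Ern1, the gene of IRE1, had 13.1, 9.83, 4.15 and 11.6 in the controls and 9.69, 9.35, 0.610 and 8.66 in the Etv5 shRNA libraries. Its control library 3 was below all but 1 of the other libraries, and Etv5 shRNA library 3 was near the floor of the filter. The log2 difference was 0.04 over 7 libraries with a wide interval, -0.62 to 0.69 (adjusted p = 0.961). Over 8 libraries it was -0.63 (interval -2.05 to 0.78, adjusted p = 0.879), the lowest of the 38, with a ratio of means of 0.73. Eif2ak3, the gene of PERK, which links ER stress to ATF4, was low at 2.58 ± 0.269 (SD, n = 4) and 2.78 ± 0.236 (n = 3); 10.7% of its exon bases are shared with Gm43292. Its groups overlapped, with differences of 0.08 over 7 libraries (adjusted p = 0.700) and -0.21 over 8 (adjusted p = 0.879).

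The chaperones and lectins did not pass in either comparison, and their median log2 difference over 7 libraries was 0.07. Hspa5 had coverage values of 222, 231, 279.6 and 231 in the controls and 290.1, 304, 249 and 259.9 in the Etv5 shRNA libraries. Control library 3 was above Etv5 shRNA libraries 3 and 4, and the groups overlapped. Its log2 difference came to 0.19 over 8 libraries and 0.24 over 7 (95% interval -0.02 to 0.51, adjusted p = 0.312). Leaving out control library 3 as well gave 0.31 with an adjusted p of 0.0470. Calr had 90.3, 92.8, 94.03 and 96.6 in the controls and 119, 104.6, 103.7 and 120.03 in the Etv5 shRNA libraries. It was the 1 chaperone gene whose groups did not overlap, with a ratio of means of 1.20 over 8 libraries and 1.22 over 7 (log2 difference 0.29, 95% interval 0.09 to 0.49, adjusted p = 0.121). Without control library 3 in addition the adjusted p was 0.0471.

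The other 6 chaperone genes had differences between -0.19 and 0.11 over 7 libraries, and their groups overlapped. Hsp90b1 encodes the ER chaperone GRP94; it had 153 ± 14.9 (SD, n = 4) and 158 ± 13.8 (n = 3), and 15.5% of its exon bases are shared with 1810014B01Rik and Gm15344. Dnajb9, a BiP cochaperone known as a target of XBP1, had the lowest difference of the arm, -0.19 over 7 libraries (adjusted p = 0.398) and -0.50 over 8 (adjusted p = 0.836). Its coverage value was 1.86 in Etv5 shRNA library 3, against 4.84 to 7.64 in the other 7. Sdf2l1 and Creld2, quick responders to ER stress, and the secreted factor gene Manf had differences of 0.10, 0.02 and -0.05 over 7 libraries, and of 0.21, 0.29 and 0.09 over 8. Canx, the membrane-bound partner of calreticulin, had 0.11 over 7 and -0.11 over 8. In Etv5 shRNA library 3 Creld2 and Manf were at 26.1 and 40.7, their highest values, and Canx was at 45.8, its lowest.

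The disulfide isomerases and Herpud1 were the flattest group, with a median difference of 0.03 over 7 libraries and a range of -0.04 to 0.12. Herpud1 encodes a membrane protein of ER-associated degradation that both ATF4 and ATF6 can raise, and it is the chaperone-arm gene with TGATGCAA in its promoter. Its coverage values were 34.5, 35.4, 44.4 and 34.8 in the controls and 38.96, 43.5, 33.0 and 38.6 in the Etv5 shRNA libraries. The log2 difference was 0.05 over 8 libraries and 0.12 over 7 (95% interval -0.12 to 0.36, adjusted p = 0.589). Pdia3, the isomerase that works with calreticulin and calnexin, had 98.6, 103, 125 and 102 in the controls and 111, 118, 95.9 and 103 with the Etv5 shRNA. The highest value of both genes was in control library 3, above every Etv5 shRNA library. The difference of Pdia3 was 0.00 over 8 libraries and 0.05 over 7 (95% interval -0.19 to 0.30, adjusted p = 0.818). Pdia4 and Pdia6, further isomerases of the ER, had differences of 0.01 and -0.04 over 7 libraries, and of -0.27 and 0.10 over 8 (adjusted p = 0.879 and 0.895).

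Side by side, the ATF4 arm had a median log2 difference of 0.32 over 7 libraries, a fold of 1.24, and the chaperone arm one of 0.05, a fold of 1.03, where the median of all tested genes was -0.003. Over 8 libraries the medians were 0.20, 0.07 and -0.11. They were 0.11, -0.02 and -0.18 when libraries were scaled to equal sums, and 0.38, 0.24 and 0.02 with median-of-ratios scaling. Positive differences were seen for 20 of 22 and 9 of 12 genes over 7 libraries, and for 19 of 22 and 9 of 12 over 8. By library, measured against the mean of the controls, the median of the ATF4 arm was -0.03, 0.03, 0.10 and -0.08 in the controls and 0.36, 0.35, 0.20 and 0.28 in the Etv5 shRNA libraries. All 4 Etv5 shRNA medians were above all 4 control medians. The chaperone arm had medians of -0.10, -0.04, 0.22 and -0.06 in the controls and 0.06, 0.11, 0.04 and 0.03 in the Etv5 shRNA libraries. Here control library 3 was the highest of the 8, and the groups overlapped through it alone. Without library 3 of either group the median log2 difference was 0.34 for the ATF4 arm and 0.12 for the chaperone arm. The difference between the arms was not tested, since their members were chosen with results of these data known.

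**Figure D3:**
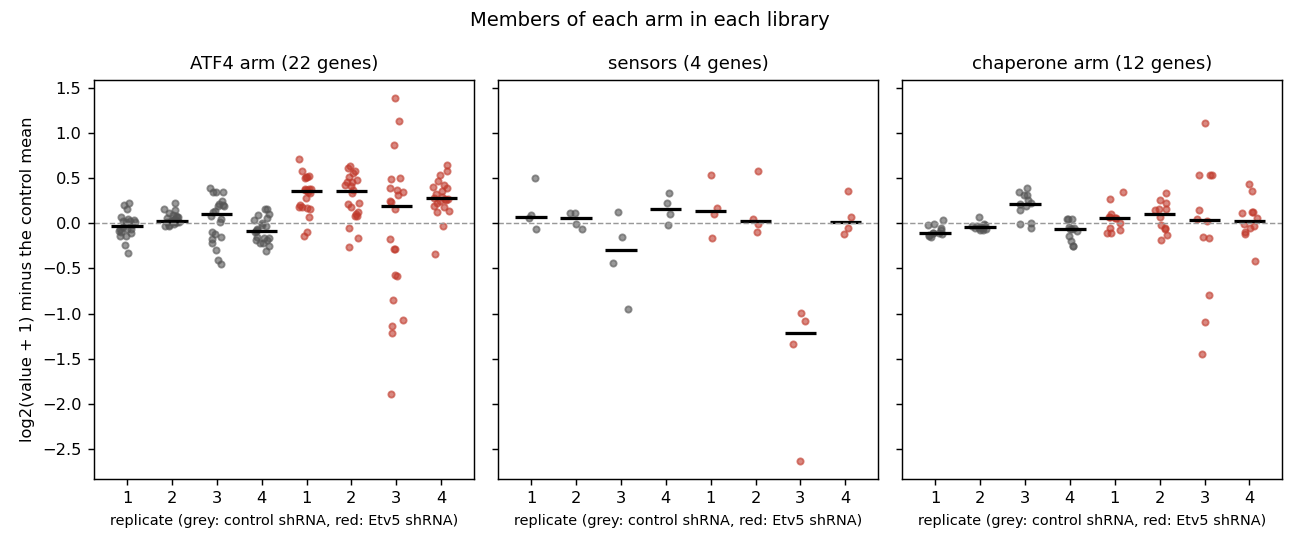
Each point is 1 gene in 1 library, placed by its log2(value + 1) minus the mean of the 4 controls (vertical axis), for the ATF4 arm, the sensors and the chaperone arm; bars are medians. The bars of the ATF4 arm lie at 0.36, 0.35 and 0.28 in Etv5 shRNA libraries 1, 2 and 4, and its points in library 3 spread from far below to far above 0.

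The third libraries of both groups deviated from their groups in a similar way, and the members followed. In Etv5 shRNA library 3, 12 of 22 genes of the ATF4 arm were above the control mean, against 20, 19 and 20 in the other 3, and the quartiles were -0.58 and 0.39. Its median was -1.21 for the sensors and -0.49 for all tested genes. Relative to the other Etv5 shRNA libraries, the members ran from -2.67 for Ern1 to 1.64 for Ddit3. That deviation fell with transcript length, with a Spearman correlation of -0.69 across the 38 members and -0.60 across 11561 genes. For control library 3 the correlations with length were -0.75 and -0.63, and the deviations of the third libraries correlated at 0.88 across the members and 0.79 across all genes. These are correlations across genes of the same libraries, which are not independent replicates. The median transcript length was 2712 bases in the ATF4 arm, 2323 in the chaperone arm, 5729.5 for the sensors and 3262 for all genes. What produced the deviation was not tested.

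**Figure D4:**
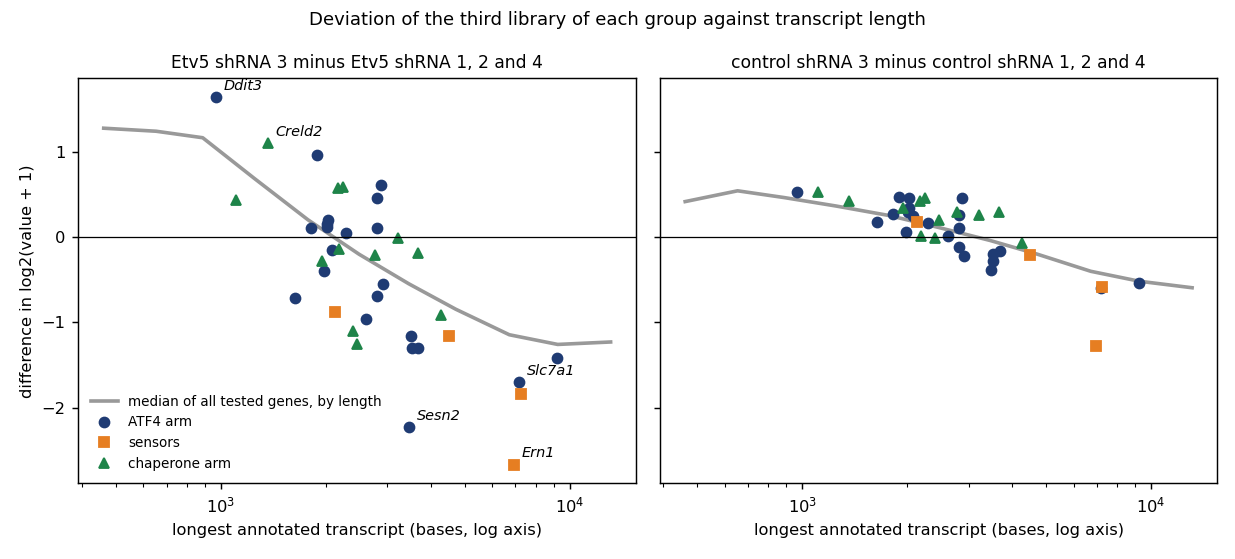
Deviation of the third library of each group from the mean of the other 3 on the log2(value + 1) scale (vertical axis) against transcript length in bases (horizontal axis, log scale) for the 38 genes, with the median of all tested genes by length as a grey line. Members run from high in short transcripts to low in long ones, with Spearman correlations of -0.69 for Etv5 shRNA library 3 and -0.75 for control library 3.

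When each library's trend with transcript length and GC content was removed, 13 of 22 genes of the ATF4 arm were called higher over 7 libraries, with 5.51% of all genes. They were the 6 above with Asns, Psat1, Sesn2, Shmt2, Slc3a2, Slc7a1 and Trib3; Atf6 and Calr were called as well. The medians of the ATF4 arm by library were then 0.38, 0.42, 0.17 and 0.28 with the Etv5 shRNA and -0.03 to 0.03 in the controls. Those of the chaperone arm were 0.05, 0.12, 0.24 and 0.04 with the Etv5 shRNA and -0.06, -0.04, 0.13 and -0.04 in the controls. Without library 3 of either group, 12 of 22 were called, with 3.56% of all genes, and Atf6, Calr and Hspa5 in addition. Atf4 and Ddit3 did not pass in either setting. In the other direction, leaving out Etv5 shRNA library 1 or library 2 from the 7 left no member called, against 0.0933% and 0.127% of all genes called higher. At an unadjusted p under 0.05 were then 10 and 11 genes of the ATF4 arm, and 12.3% of all tested genes in each of these fits. Leaving out Etv5 shRNA library 4 left 2 (Atf3 and Slc7a5), with 0.399% of all genes. Leaving out control library 1 left the same 2 (0.247% of all genes), control library 2 left Atf3 (0.162%), and control library 4 left Atf3, Chac1 and Slc7a5 (0.561%). No member was called lower in any of the fits.

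Of 73 other genes of these pathways, listed by textbook role, 66 were tested. None was called over 8 libraries, where 5 were at an unadjusted limma p under 0.05, a share near the 7.09% of all tested genes. At that cut were 22 of the 66 over 7 libraries, against 18.9% of all tested genes. Over 7 libraries 3 were called higher and 1 lower, against 1.07% and 2.06% of all tested genes. All 3 that rose were among the 18 tested of 24 further ATF4 targets, whose median difference was 0.24. Of these 18, 11 were at an unadjusted limma p under 0.05. Gpt2, the mitochondrial alanine aminotransferase, had coverage values of 23.6, 23.5, 19.5 and 24.4 in the controls and 36.96, 37.2, 16.2 and 34.4 in the Etv5 shRNA libraries (log2 difference over 7 libraries 0.65, adjusted p = 0.00805). Cth, which makes cysteine by transsulfuration, had 29.2, 35.7, 39.2 and 32.0 and then 53.03, 55.4, 28.2 and 45.4 (0.58, adjusted p = 0.0323). Got1, the cytosolic aspartate aminotransferase, had 27.2, 27.3, 29.9 and 27.3 and then 35.98, 37.7, 25.5 and 35.2 (0.37, adjusted p = 0.0390). All 3 had Etv5 shRNA library 3 below every control and the other 3 above every control. Without Etv5 shRNA library 1 or 2 none of these 3 passed, with adjusted p between 0.0582 and 0.186. Gpt2 passed in the other 5 fits that left out 1 library, and Cth and Got1 passed only without control library 3.

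Of the 18 further ATF4 targets tested, 2 had all Etv5 shRNA libraries that entered over 7 libraries below all controls. They were Klhl24 and Gadd45a, both raised by stress in other settings. Their differences were -0.57 (limma adjusted p = 0.0568) and -0.36 (limma adjusted p = 0.157). With 10.5% of all tested genes in that order, 2 of 18 is near the background and is not a result about the list. The opposite order held for 9 of the 18, against 9.72% of all tested genes. None of 13 eIF2 kinases and eIF2 control factors was called. At an unadjusted limma p under 0.05 were 5 of these 13 over 7 libraries, against 18.9% of all tested genes, and 1 over 8, against 7.09%. Their median difference was 0.18 over 7 libraries and -0.07 over 8. Of 36 further ER stress factors, chaperones and degradation genes, 35 were tested, with a median difference of 0.01, and Syvn1 was the 1 called, lower. With 2.06% of all tested genes called lower, 1 of 35 is near the background and is not a result about the list. Syvn1 encodes the ubiquitin ligase HRD1 of ER-associated degradation and had 13.2, 12.1, 10.7 and 12.5 in the controls and 8.80, 8.48, 6.64 and 9.17 in the Etv5 shRNA libraries. It fell by 0.42 on the log2 scale over 7 libraries (SE 0.0914, adjusted p = 0.0434), and all 4 Etv5 shRNA libraries were below all 4 controls; over 8 libraries the adjusted p was 0.348. The call held without control library 3 (adjusted p = 0.00514) and was lost without any 1 of the other 6, with adjusted p up to 0.194.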

How the data were processed

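The deposited table holds 1 signal per gene and library, the coverage per base scaled to depth by the authors; this reading comes from the values, and the columns are coverage tracks per the file headers. The submitters' processing notes name STAR 2.7.10a and the mm10 build. Per the labels' protocols, total RNA was made into libraries with the Illumina TruSeq RNA kit v2 and sequenced on an Illumina NovaSeq. What averaged the coverage over genes, and with which annotation, is not given in the sources used here. Whole reads were not recovered, so no depth or counting interval can be stated.

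Groups and replicate numbers came from the sample titles. Values were transformed as log2(value + 1) and compared by limma 3.58.1 (R 4.3.3; prior variance with an intensity trend; no covariate), on genes reaching 0.5 in 4 or more of 8 libraries or 3 of 7. Benjamini-Hochberg adjustment ran over all tested genes. The fit was tested on simulated data with planted changes, and their recovery was required over 7 libraries only. The noise was drawn for each gene apart, so the simulation did not hold the deviation that the third libraries share. How small a difference it could call over 8 libraries was not tested. Etv5 was also compared by an exact permutation test. Transcript lengths, GC content, coordinates and shared 50-base stretches came from GENCODE mouse release M21 on mm10, and 97.7% of entries matched a length. Strand was not used, since no source states stranded counting.

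The members, gene lists and tests were chosen with earlier results of these data known. Genes described with all values follow a rule: Etv5, Atf4, Ddit3, Asns, Xbp1, Hspa5, every called member, the 2 members with the smallest p over 7 libraries in each role, and up to 5 called other pathway genes per direction. Ern1 was added after its values were seen; all other members are given by summaries. Alternatives were 3 other scalings, no filter or a minimum of 1, 0.1 as pseudocount, a block for the replicate number, removal of trends with length and GC content (lowess, span 0.3), and leaving out each library.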

Additional observations from a re-analysis of the deposited data

Results flagged for a closer look

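Of 46 groups of 4 libraries screened for the genes described with all values, 12 held a library whose gap to its neighbours passed Dixon's 95% limit. For independent groups of genes chosen beforehand, 1 in 20 would be about 2.3. Many of these genes were chosen by their results here, Ern1 after its values were seen, and all groups share the same libraries. The 2.3 is therefore not a chance level for the 12. In 9 of the 12 the library was Etv5 shRNA library 3, and in 3 it was control library 3. For Ddit3, Etv5 shRNA library 3 held the highest coverage value of its group, 92.4. It was the lowest of its group for Xbp1 (9.02), Aldh18a1 (24.1), Slc7a5 (67.97), Slc1a5 (48.3), Sesn2 (2.25), Psat1 (121.6), Gpt2 (16.2) and Ern1 (0.610). Control library 3 was the highest of its group for Hspa5 (279.6), Herpud1 (44.4) and Got1 (29.9). Deviations of the third libraries went with transcript length, as given above, and the source of that relation was not tested.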

How the results depend on the processing

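Over 8 libraries, the count of all genes called higher, 1, became 7 with median-of-ratios scaling, 0 with equal sums, 8 with quantile normalisation, 3 with no filter, 0 with 0.1 as pseudocount, 22 with the length trend removed and 42 with the length and GC trend removed. The count called lower, 57, became 37 with the pseudocount, 93 with the length trend removed and 118 with length and GC. Genes of the ATF4 arm called higher went from 0 to 1 with median-of-ratios scaling, quantile normalisation, and length and GC; other pathway genes called lower went from 0 to 1 with either trend removed. Leaving out each library gave 0 to 127 genes called higher, 20 to 241 lower, 0 to 6 of the ATF4 arm, 0 to 3 other pathway genes higher and 0 to 1 lower, and a median of the ATF4 arm minus that of the chaperone arm of 0.0723 to 0.2665, the upper ends without Etv5 shRNA library 3. Median-of-ratios scaling moved the median difference of all genes from -0.11 to 0.02.

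Over 7 libraries, 127 genes called higher became 68 with equal sums, 80 with the replicate block, 443 with the length trend removed and 652 with length and GC, and 244 called lower became 150, 514 and 678 with equal sums and the 2 trends. The ATF4 arm went from 6 to 11 and 13 with the trends removed, sensors and the chaperone arm from 0 to 1 each with either, and other pathway genes called higher from 3 to 6 and 12. Other pathway genes called lower, 1, became 2 with median-of-ratios scaling, quantile normalisation or the block, 0 with equal sums or no filter, and 3 and 4 with the trends removed. Leaving out each library gave 11 to 419 genes higher, 82 to 631 lower, 0 to 12 of the ATF4 arm, 0 to 1 of the sensors, 0 to 2 of the chaperone arm, and 0 to 8 other pathway genes higher and 0 to 3 lower. The upper ends came without control library 3. Causes were not tested.

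None of the genes whose sign turned was called there. Over 8 libraries these were, with equal sums, Atf6 (-0.033), Herpud1 (-0.0394) and Pdia3 (-0.0866), and with quantile normalisation Pdia3 (-0.0971). Leaving out a library gave ranges of -0.2501 to 0.3276 for Ddit3, -0.4253 to 0.3328 for Sesn2, -0.1493 to 0.4922 for Atf6, -0.0127 to 0.1318 for Herpud1, -0.0465 to 0.0762 for Pdia3 and -0.949 to 0.0354 for Ern1. Over 7 libraries Ern1 was at -0.2824 with the replicate block, -0.0552 with the length trend removed and -0.06 with length and GC, and at -0.2824 to 0.2018 when a library was left out. Of all gene-level results under the alternatives, 617 kept direction and side of the threshold, 60 lost the call, 28 gained it and 21 turned sign. Most of the 617 were results that had no call to lose. All 60 losses came from genes called over 7 libraries, since none was called over 8. They ran from 2 of 16 alternatives for Atf3 and Gpt2 to 10 of 16 for Aldh18a1.

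Same-numbered libraries of the groups had correlated deviations of 0.549, 0.092, 0.794 and 0.510, and not every library correlated best with its own number. The highest value was that of the third libraries. Deviations were taken from each group's mean, which the third library pulls. These values therefore cannot settle whether the numbers mark pairs. The main fits did not take the numbers as pairs. With the replicate block over 7 libraries 4 genes of the ATF4 arm were called (Atf3, Chac1, Mthfd2 and Slc7a5), and over 8 libraries none. Over 7 libraries control library 3 has no partner of its number, so the blocked difference rests on the other 6 libraries. The unblocked fit on those 6 called 12 genes of the ATF4 arm, and the unblocked fit over 7 called 6.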
